A study of Mus musculus with 8 samples.

Results

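The clustered protocadherin genes were described in sorted muscle cells after injury. They were taken as every gene whose symbol is Pcdha, Pcdhb, Pcdhga, Pcdhgb, Pcdhgc or Pcdhac followed by a number, which gave 57 of the 55276 gene symbols: 13 of the alpha, 22 of the beta and 22 of the gamma cluster. The family was proposed because Pcdhgb8 stood out between the genotypes at 3 days post injury (dpi), so all values of that comparison, counts by the study's own rule included, describe the choice and support nothing here.

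Clustered protocadherins are cadherin-like adhesion molecules of the cell surface. They are known from neurons, where each cell uses its own combination of isoforms as an identity label, and contact between cells with matching combinations is read as self. The genes lie in tandem. In the alpha and gamma clusters each gene is a variable first exon with its own promoter, which encodes the extracellular domain and is spliced to constant exons shared by the whole cluster, whereas beta genes are single exons without a constant part. Promoter choice depends on CTCF and cohesin, which loop a distant enhancer to one promoter, and silent promoters carry DNA methylation. The C-type genes (Pcdhac1, Pcdhac2, Pcdhgc3, Pcdhgc4, Pcdhgc5) stand at the downstream ends of the alpha and gamma clusters and are regulated differently from the tandem A and B genes.

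RNA was sequenced from fibro-adipogenic progenitors (FAPs), mesenchymal cells of the muscle interstitium, sorted as GFP+ cells from the tibialis anterior muscle of mice aged 4 to 6 months after a freeze-pierce injury. Control mice (Ctrl) were Osr1 flox/+ and knockout mice (Osr1cKO) Osr1 flox/flox, both with the CAGG Cre transgene. This tamoxifen-inducible Cre is active in all tissues, and all mice received tamoxifen on the day of injury and the days after it. Recombination replaces Osr1, a zinc finger transcription factor, by eGFP, so that the sorted Ctrl cells were themselves recombined heterozygotes and other cell types of the muscle could lose Osr1 too. There were 2 libraries per genotype at 3 dpi, each from 1 mouse, and 2 per genotype at 7 dpi, each from 4 pooled mice. Pooling therefore goes with the day, and the study's methods name a second sequencer and read length without assigning them to libraries, so that day, pooling and possibly sequencing cannot be told apart. With 2 libraries per group, sums over a cluster are given per library and without a test.

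The libraries held 36516558 to 51096384 fragments, recovered from the deposited values as described in the processing section. Osr1, measured over its whole transcript and not over the deleted part alone, was at 105 and 91.0 TPM (the transcript abundance unit of the deposited values, scaled by gene length and library) in Ctrl and at 70.7 and 71.9 TPM in Osr1cKO at 3 dpi, and at 67.6 and 71.6 against 64.4 and 60.8 TPM at 7 dpi. It was lower in both knockout libraries at each day. The 9 FAP markers, among them Pdgfra, Dcn and Col1a1, summed to between 26864 and 54292 TPM, and none was at 0. This sum was largely Col1a1 and Col3a1, whereas Pdgfra was at 197 to 365 TPM. Markers of other cells were low beside the sum of the FAP markers. Their sums ranged over all libraries from 5.41 to 12.0 TPM for Schwann cells, 13.8 to 115 for neurons, 61.4 to 151 for muscle stem cells, 8.36 to 79.3 for myofibers, 17.2 to 72.0 for endothelium, 9.15 to 31.6 for hematopoietic cells, 0 to 49.5 for erythroid cells and 224 to 761 for mural cells. None of these markers was at 0 in every library. The mural sum was not low beside Pdgfra alone, and Acta2 made up 175 to 709 TPM of it.

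The family fills one stretch of mouse chromosome 18 (mm10, plus strand), in the order alpha (chr18:36930184-37187661), beta (chr18:37264938-37524479) and gamma (chr18:37661793-37841873). What a value stands for differs between the clusters. Beta genes shared no exon base with another gene on their strand, apart from a small part of Pcdhb21 and Pcdhb22 (90.3% and 93.1% unique). In alpha genes a median of 46.4% of the exon bases was unique to the gene, and in gamma genes 55.3%, the rest being mostly the constant exons.

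Fragments from shared exons appear not to have been counted. Across the annotation, 629 of the 675 genes whose exon bases are all shared with a gene on the same strand (93.2%) were listed at 0 in all 8 libraries, against 18149 of 42021 genes without any shared base (43.2%). Genes whose exon bases are shared only with the opposite strand, and wholly so, were at 0 in 199 of 427 cases (46.6%). Gm42416, Gm37013 and Gm37388, gene models that span the locus without an exon base of their own, were at 0 throughout. The values of single alpha and gamma genes thus rest mainly on variable exons, and because TPM divides by the whole exon length, it places alpha and gamma genes lower against beta genes than a value per unique base does.

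FAPs used the 3 clusters at very different levels. Gamma genes made up 79.8% to 89.5% of the summed TPM of the family in every library, beta genes 10.4% to 19.9%, and alpha genes at most 0.302%. The median gene had a mean level of 4.32 TPM in the gamma, 1.55 TPM in the beta and 0.0134 TPM in the alpha cluster. Scaled by library size and unique exon length (FPKM over unique bases), the medians were 2.17, 0.418 and 0.00733, in the same order.

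The alpha cluster was close to silent. Pcdhac2, its most downstream gene, was the only alpha gene above 0 in all 8 libraries. It measured 0.150 and 0.427 TPM in Ctrl and 0.322 and 0.363 TPM in Osr1cKO at 3 dpi, and 0.394 to 0.539 TPM at 7 dpi. None of the other 12 alpha genes exceeded 0.133 TPM in a library. Pcdha4 was listed at 0 everywhere, but only 8.56% of its exon bases are its own. A count of 0 allows up to 3 fragments, or 0.0541 TPM in the least favourable library when divided by its whole exon length. As fragments from shared exons appear not to be counted, the level that could go unseen is higher. The values therefore cannot show that Pcdha4 is silent. The row used for Pcdha11 fits the length of ENSMUSG00000007440.10, which overlaps the gene that RefSeq calls Pcdha10, so its name is uncertain.

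In the beta cluster 21 of 22 genes were above 0 in every library. Pcdhb17 led with a mean of 8.04 TPM, followed by Pcdhb22 with 5.26, Pcdhb16 with 4.02 and Pcdhb5 with 3.98 TPM. Pcdhb17 was at 5.65 and 6.58 TPM in Ctrl and 6.46 and 5.56 TPM in Osr1cKO at 3 dpi, and at 9.82 to 10.3 TPM in the 4 libraries of 7 dpi. Pcdhb1, the most upstream beta gene, was at 0 in all 8 libraries, which allows up to 0.121 TPM. The beta genes detected ranged down to Pcdhb10 with a mean of 0.552 TPM.

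In the gamma cluster all 22 genes were above 0 in every library, and Pcdhgc3 exceeded all others. It measured 144 and 77.4 TPM in Ctrl and 148 and 165 TPM in Osr1cKO at 3 dpi, against 117 and 128 TPM in Ctrl and 116 and 119.8 TPM in Osr1cKO at 7 dpi. Its 64575 fragments over all libraries put it first on the unique-length scale as well, at 54.2 FPKM over unique bases, ahead of Pcdhgb6 with 7.64. BC037039 lies on the opposite strand over the start of Pcdhgc3, at 0.963 to 3.44 TPM, and whether the counting kept the strands apart is not stated. The other C genes of the cluster, Pcdhgc4 and Pcdhgc5, had means of 1.76 and 5.78 TPM.

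Among the gamma A and B genes, Pcdhgb6 (mean 15.9 TPM), Pcdhga10 (11.4), Pcdhga11 (9.97), Pcdhgb2 (7.34), Pcdhga3 (7.32) and Pcdhgb8 (6.41) were highest. Pcdhgb6 was at 11.9 and 17.0 TPM in Ctrl and 16.2 and 16.7 TPM in Osr1cKO at 3 dpi, and at 14.3 to 17.7 TPM at 7 dpi, so that Ctrl replicate 1 of 3 dpi was its lowest library. Pcdhgb8 (ENSMUSG00000103081.2, chr18:37761801-37841870) is annotated as a polymorphic pseudogene in GENCODE and as a transcribed pseudogene in RefSeq.

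**Figure D1:**
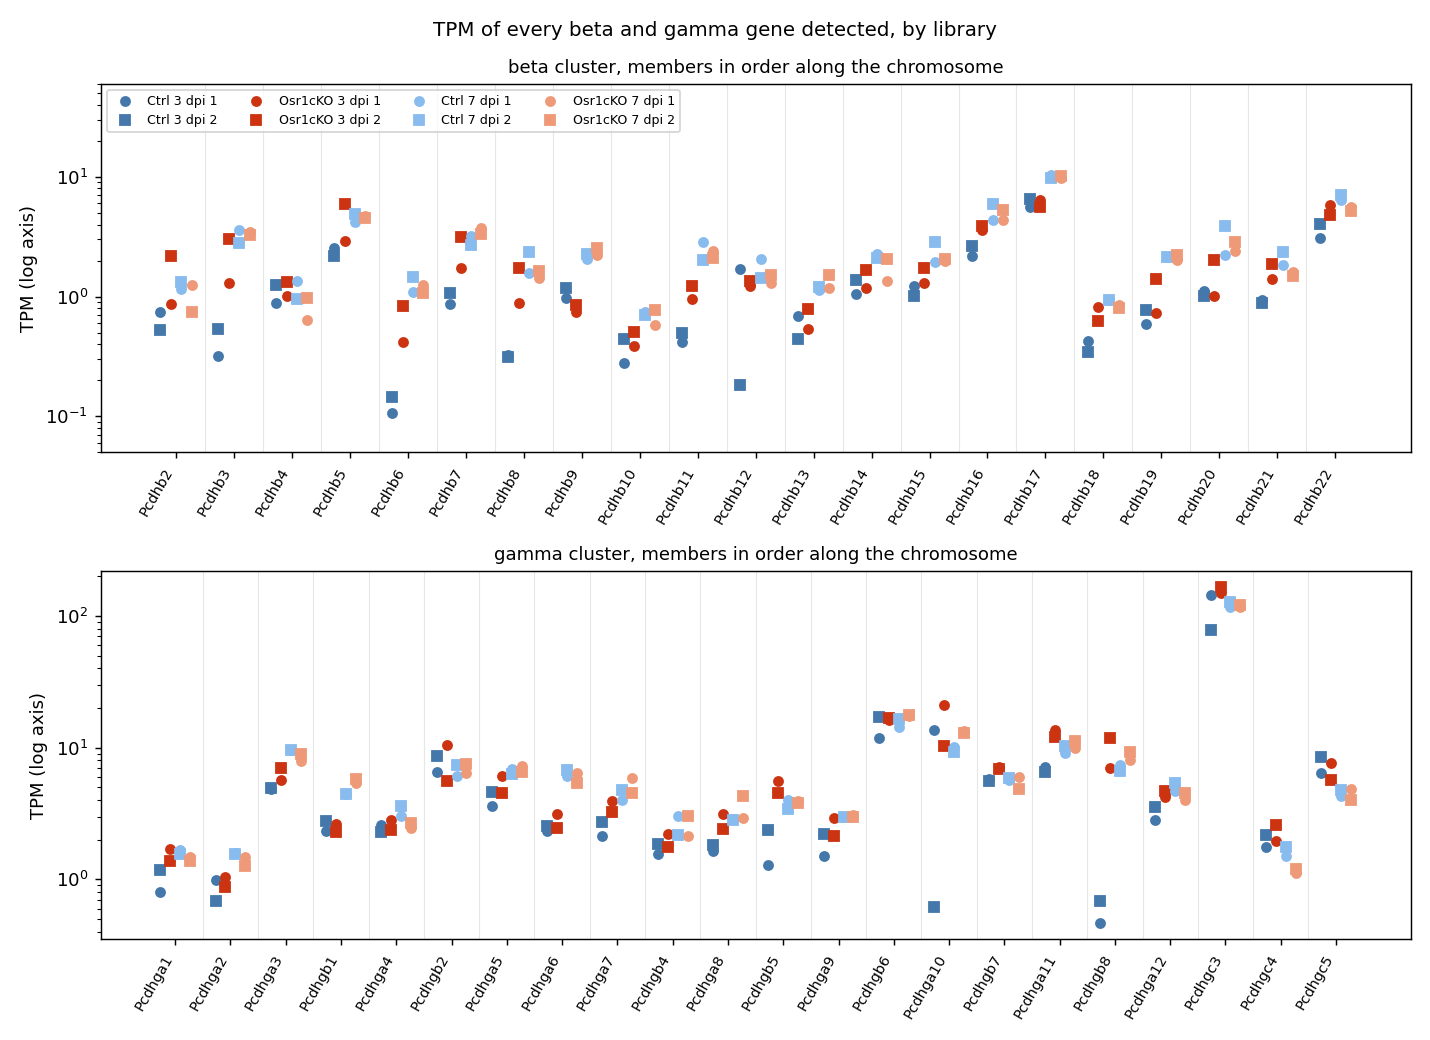
TPM (log axis) of the 21 beta and 22 gamma genes detected, in order along the chromosome, with one symbol per library (colour, group; circle, replicate 1; square, replicate 2). Most genes lie within a narrow band at 7 dpi, whereas at 3 dpi Pcdhgb8 is low in both Ctrl libraries, Pcdhga10 and Pcdhb12 are low in Ctrl replicate 2 alone, and Pcdhgc3 lies above every other gene in all libraries.

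The design asks first whether loss of Osr1 changed the levels at 3 dpi. The summed TPM of the beta genes was 26.1 and 27.5 in Ctrl and 35.3 and 46.5 in Osr1cKO, or 26.8 ± 0.949 against 40.9 ± 7.89 (mean ± SD, n = 2), a ratio of 1.53. The gamma A and B genes summed to 73.8 and 72.7 TPM in Ctrl and to 120.5 and 103 TPM in Osr1cKO, a ratio of 1.52. In both sums the Ctrl libraries lay close together and below both knockout libraries. The gamma A and B sums of Ctrl were close although their composition differed, with Pcdhga10 at 18.4% of the sum in replicate 1 and 0.846% in replicate 2. The gap between the group means of this sum, 73.2 and 112 TPM, includes Pcdhgb8, for which the family was chosen (0.576 and 9.39 TPM). It also includes Pcdhga10 (7.09 and 15.6 TPM).

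The C genes of the gamma cluster, as a sum, behaved differently, because the Ctrl libraries were far apart. They summed to 152 and 88.1 TPM in Ctrl and to 158 and 173 TPM in Osr1cKO, so that Ctrl replicate 1 lay near the knockout libraries. Most of this sum was Pcdhgc3, with means of 110 TPM in Ctrl and 156 TPM in Osr1cKO. Pcdhgc4 had means of 1.96 and 2.28 TPM and Pcdhgc5 of 7.44 and 6.68 TPM, so the sum describes Pcdhgc3 above all. The log2 ratio of the whole gamma sum accordingly was 0.52 with all libraries, 0.78 without Ctrl replicate 1 and 0.30 without Ctrl replicate 2. The alpha sum was 0.421 and 0.501 TPM in Ctrl and 0.647 and 0.650 TPM in Osr1cKO, which came from at most 48 fragments per library. In sorted bulk RNA, fewer cells that use a gene and less RNA of it per cell cannot be told apart.

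**Figure D2:**
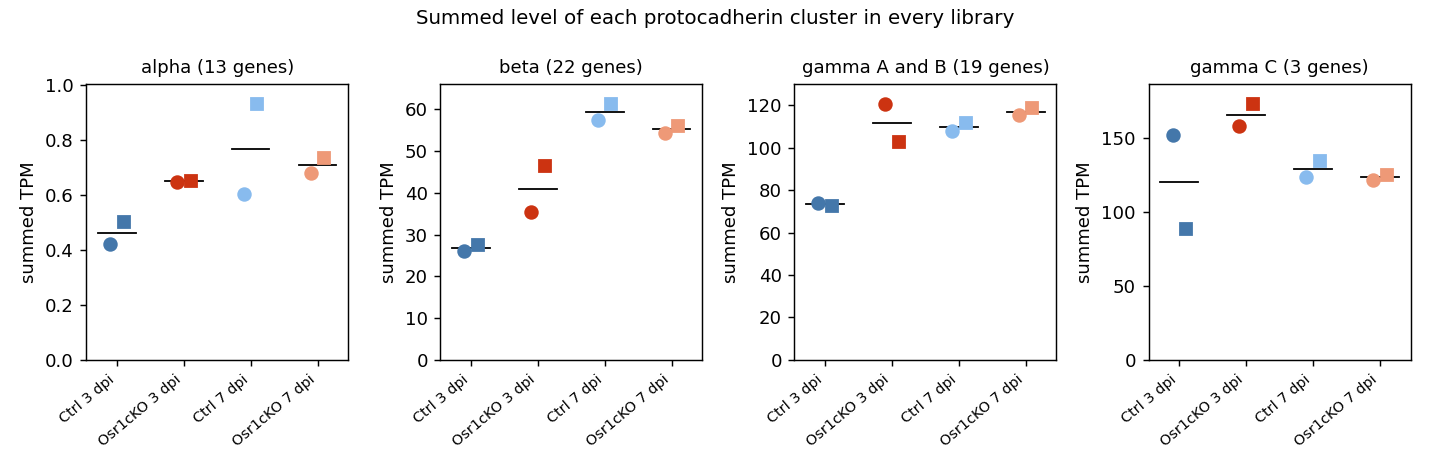
Summed TPM of the alpha, beta, gamma A and B, and gamma C genes in each library (circle, replicate 1; square, replicate 2; line, group mean of 2 libraries), each panel on its own axis from 0. The beta and the gamma A and B sums are lowest in both Ctrl libraries of 3 dpi, and the gamma C sum is low in Ctrl replicate 2 of 3 dpi alone.

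Pcdhgb8 showed the largest difference among the family members. It was at 0.470 and 0.681 TPM in Ctrl, from 27 and 40 fragments, and at 6.99 and 11.8 TPM in Osr1cKO, from 408 and 713 fragments. The log2 difference of TPM + 1 was 2.69. This gap is the one for which the family was chosen.

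Further members were low in both Ctrl libraries. Pcdhb3 was at 0.318 and 0.540 TPM in Ctrl and at 1.29 and 3.02 TPM in Osr1cKO. Pcdhb8 was at 0.323 and 0.316 TPM against 0.885 and 1.73 TPM, and Pcdhb6 at 0.107 and 0.147 TPM against 0.421 and 0.834 TPM. In these beta genes Osr1cKO replicate 2 lay well above replicate 1, and both lay above Ctrl. Among gamma genes, Pcdhgb5 was at 1.28 and 2.37 TPM against 5.59 and 4.50 TPM, and Pcdhga11 at 7.14 and 6.48 TPM against 13.6 and 12.0 TPM.

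Of the 44 members that passed the filter on low values (1 alpha, 21 beta, 22 gamma), 9 were listed by the study's rule for 3 dpi, which asks for more than a 1.2-fold change and p under 0.05 before adjustment. This listing reuses the contrast that chose the family and is no test of it. All 9 were higher in Osr1cKO, where the rule lists 2.4% of all 15699 features as higher and 3.87% as lower. Besides the 6 genes above they were Pcdhb7, Pcdhb11 and Pcdhb21, with log2 differences of 0.78, 0.52 and 0.46. The number listed depended on single libraries, among the members and over all features. With single libraries left out, the median difference over the members was 0.28 to 0.31.

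The log2 difference was above 0 for 40 of the 44 members, with or without further scaling, and for 51.8% of all features. The groups did not overlap, with Osr1cKO higher, for 22 members (18.2% of all features) and with Osr1cKO lower for 1, Pcdhb9 (18% of all features). Pcdhb9 was at 0.972 and 1.18 TPM in Ctrl and at 0.750 and 0.850 TPM in Osr1cKO. The median difference was 0.31 over the members and 0.01 over all features. Because the family was chosen on this contrast, these counts describe the choice.

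Single libraries of 3 dpi also differed in which genes they used. Pcdhga10 was at 13.6 TPM, from 800 fragments, in Ctrl replicate 1 and at 0.615 TPM, from 37 fragments, in Ctrl replicate 2. In the other 6 libraries it was between 9.33 and 20.9 TPM, so that one library stood alone. Pcdhb12 had the same pattern at a lower level, with 1.69 TPM (64 fragments) in Ctrl replicate 1, 0.181 TPM (7 fragments) in Ctrl replicate 2, and 1.22 to 2.05 TPM elsewhere.

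**Figure D3:**
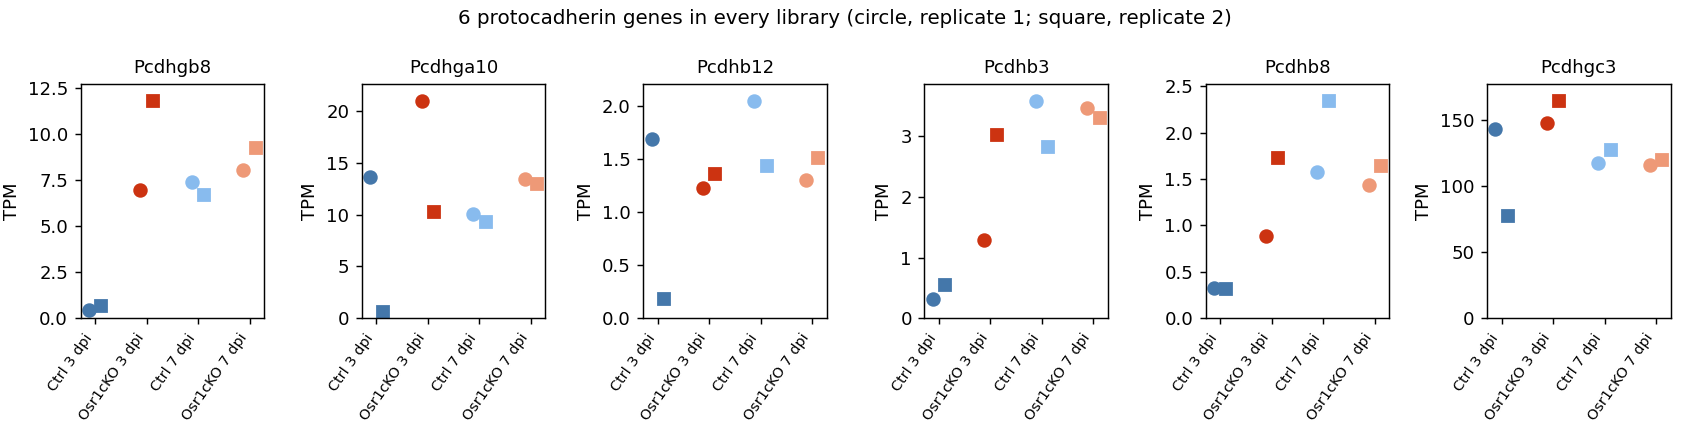
TPM of Pcdhgb8, Pcdhga10, Pcdhb12, Pcdhb3, Pcdhb8 and Pcdhgc3 in every library, each panel on its own axis from 0. Pcdhgb8, Pcdhb3 and Pcdhb8 are low in both Ctrl libraries of 3 dpi, while Pcdhga10 and Pcdhb12 are near 0 and Pcdhgc3 is lowest in Ctrl replicate 2 of 3 dpi.

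Ctrl replicate 2 of 3 dpi was thus the lowest library for Pcdhga10, Pcdhb12 and Pcdhgc3, whereas both Ctrl libraries were the lowest for Pcdhgb8, Pcdhb3, Pcdhb6 and Pcdhb8. Ctrl replicate 2 also held the most RNA of Tubb3, a neuronal tubulin, at 113 TPM against 16.4 TPM in Ctrl replicate 1 and 76.1 and 72.6 TPM in Osr1cKO. The other 7 neuron markers had means under 1 TPM. Col1a1 was at 12404 TPM in Ctrl replicate 1 and at 20485 to 25017 TPM in the other 3 libraries of 3 dpi. What part these differences have in the protocadherin values was not tested.

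Wide differences between replicates also occurred outside the family. The 2 libraries differed at least 2-fold for 3 of the 44 members in Ctrl at 3 dpi (Pcdhac2, Pcdhb12 and Pcdhga10), where 12.9% of all features did. In Osr1cKO at 3 dpi this held for 4 members (Pcdhb2, Pcdhb3, Pcdhb5 and Pcdhga10) and for 7.99% of all features. At 7 dpi no member differed 2-fold between replicates of Ctrl (5.63% of all features) or of Osr1cKO (5.42%).

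The shares of single genes within a cluster, which do not depend on the scaling of a library, set these genes against the rest of it. Pcdhga10 made up 18.4% and 0.846% of the gamma A and B sum in Ctrl and 17.4% and 9.95% in Osr1cKO at 3 dpi, and 8.37% to 11.6% at 7 dpi. Pcdhgb8 made up 0.637% and 0.937% in Ctrl and 5.80% and 11.5% in Osr1cKO at 3 dpi, and 5.99% to 7.80% at 7 dpi. Both genes therefore held a steady share in the 4 libraries of 7 dpi and a variable one before.

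The percentage of a cluster's sum that would have to move to other genes to turn one library's composition into that of another summarises this. Between libraries of 7 dpi it was 5.03% to 7.52% for the gamma A and B genes and 5.74% to 9.28% for the beta genes. Between libraries of 3 dpi it was 11.3% to 25.3% and 12.0% to 23.9%. The replicate pairs are part of that range, with 19.1% in Ctrl and 12.8% in Osr1cKO for gamma A and B, and 12.0% and 16.3% for beta. The Ctrl pair was the most alike of the 6 pairs for beta, but not for gamma A and B. The libraries of 3 dpi came from single mice and those of 7 dpi from pools, and day and pooling cannot be told apart.

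**Figure D4:**
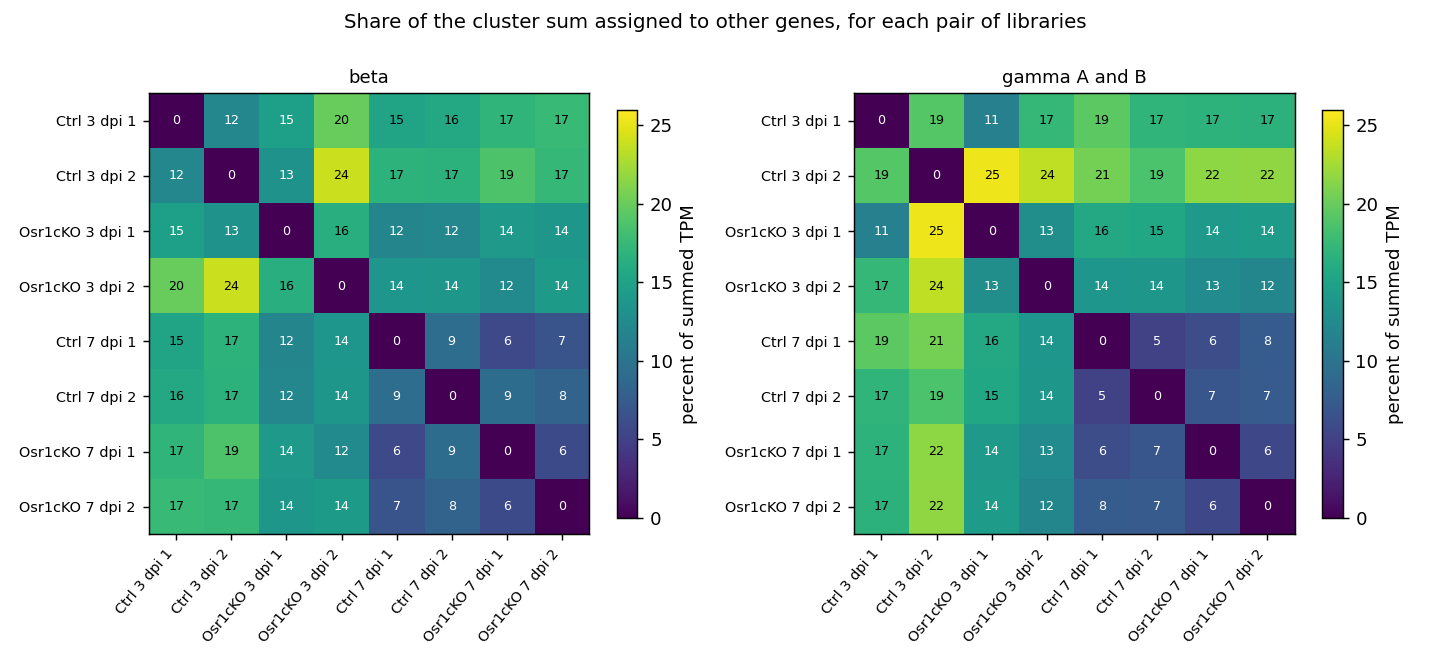
Percent of the summed TPM of the beta genes (left) and of the gamma A and B genes (right) that differs in its assignment to genes between each pair of the 8 libraries, with 0 for identical composition. The block of the 4 libraries of 7 dpi, of both genotypes, is the darkest, at most 9.28% for beta and 7.52% for gamma A and B.

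At 7 dpi, in libraries that played no part in choosing the family, the genotypes were close. The beta sum was 57.5 and 61.2 TPM in Ctrl and 54.2 and 56.1 TPM in Osr1cKO, a ratio of 0.929. The gamma A and B sum was 108 and 111 TPM against 115 and 119 TPM, a ratio of 1.07, and the gamma C sum 123 and 134 TPM against 122 and 125 TPM, a ratio of 0.958. Pcdhgb8 was at 7.40 and 6.68 TPM in Ctrl and at 8.04 and 9.25 TPM in Osr1cKO, with a log2 difference of 0.15 ± 0.14 and a limma adjusted p of 0.698.

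No member passed the study's rule for 7 dpi, a fold change over 1.2 with an adjusted p under 0.1, in the limma fit, where 0.0664% of all 16578 features did. None passed by limma-voom either, which called 199 of 16357 features. At an unadjusted p under 0.05, 2 members were lower in Osr1cKO (5.83% of all features) and none higher (5.3%). These were Pcdhb22, at 6.46 and 7.09 TPM in Ctrl and 5.63 and 5.18 TPM in Osr1cKO (log2 difference -0.39 ± 0.14, adjusted p = 0.366), and Pcdhgc4, at 1.51 and 1.76 TPM against 1.11 and 1.19 TPM (-0.37 ± 0.14, adjusted p = 0.376).

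Small differences leaned downward. The log2 difference was below 0 for 34 of the 44 members and above 0 for 10, compared with 51.2% of all features above 0. Without further scaling of the TPM it was below 0 for 28, and the median of all features then shifted to 0.11. The median over the members was -0.14 with the trimmed-mean scaling and -0.05 without it. In deposited TPM, both Osr1cKO libraries lay above both Ctrl libraries for 7 members (42.8% of all features) and below them for 10 (10.7%). The differences ranged from -0.39 for Pcdhb22 to 0.29 for Pcdhga10. The span at 3 dpi was wider, but its top was Pcdhgb8 (2.69), the gene for which the family was chosen. As pooling also goes with the day, no conclusion is drawn from the smaller span at 7 dpi.

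**Figure D5:**
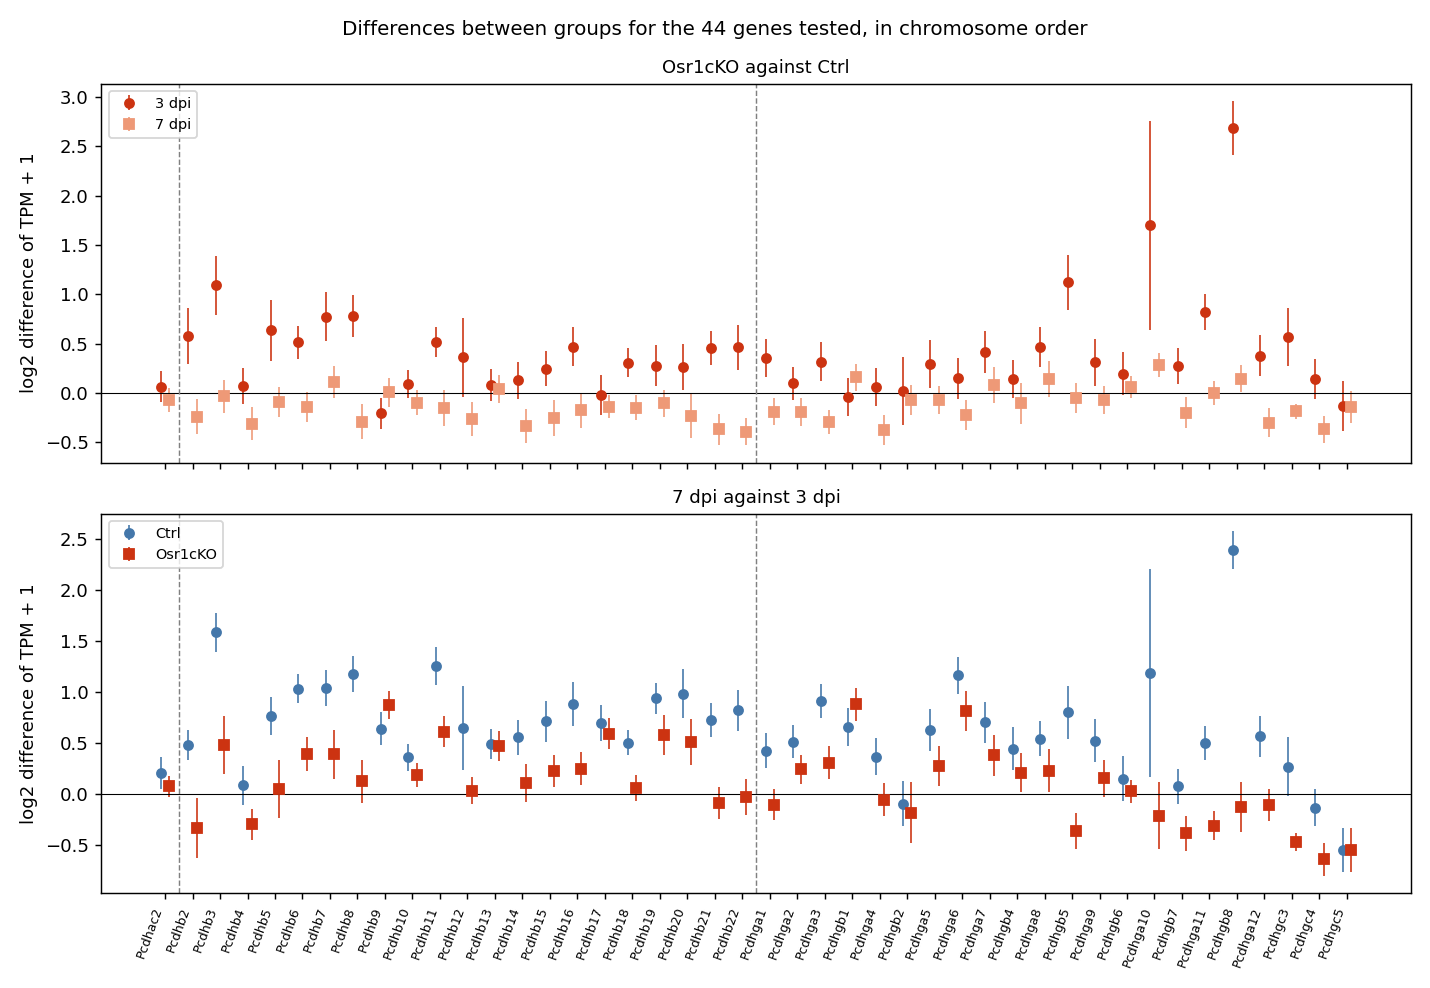
Log2 differences of TPM + 1 with their SE for the 44 genes tested, in chromosome order, between genotypes at 3 and 7 dpi (top) and between days in Ctrl and Osr1cKO (bottom); dashed lines separate alpha, beta and gamma genes. Pcdhgb8 reaches 2.69 at 3 dpi and 0.15 at 7 dpi between genotypes, and 2.39 in Ctrl and -0.13 in Osr1cKO between days, and the standard error of Pcdhga10 is wide in every comparison that includes Ctrl at 3 dpi.

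The design also gives the change from 3 to 7 dpi within each genotype. These comparisons use the libraries of 3 dpi that drew attention to the family, and they share libraries with the genotype comparisons, so they are no independent repeat of them, and their adjusted p-values make no allowance for that choice. In Ctrl, 30 of the 44 members rose and none fell, with a fold change over 1.2 and an adjusted p under 0.1 in the limma fit, where 22.7% of all 16525 features rose and 27.3% fell. The unadjusted threshold gave the same counts, and limma-voom 30 higher and 1 lower. The difference was above 0 for 41 members (49.1% of all features), and the days did not overlap for 34 members with 7 dpi higher (33.5%) and 1 with 7 dpi lower (41.4%). Of the 30, 19 were among the 21 beta genes tested and 11 among the 22 gamma genes. None of the C genes tested (Pcdhac2, Pcdhgc3, Pcdhgc4, Pcdhgc5) rose.

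The beta sum in Ctrl was 2.22 times as high at 7 dpi as at 3 dpi, the gamma A and B sum 1.5 times and the gamma C sum 1.07 times. Within the gamma C sum the ratio was 1.11 for Pcdhgc3, 0.833 for Pcdhgc4 and 0.612 for Pcdhgc5. For the members listed at 3 dpi the low Ctrl values entered the choice, so they are given without p. Pcdhgb8 was at 7.40 and 6.68 TPM at 7 dpi, a log2 difference of 2.39, Pcdhb3 at 3.58 and 2.82 TPM (1.58) and Pcdhb11 at 2.86 and 2.01 TPM, from 0.418 and 0.498 TPM (1.25). Among members not listed at 3 dpi, Pcdhga6 went from 2.32 and 2.52 TPM to 6.10 and 6.78 TPM (1.16 ± 0.18, adjusted p = 0.0105). In each of these genes both libraries of 7 dpi lay above both of 3 dpi. Pcdhgc3 and Pcdhga10 did not pass (adjusted p = 0.491 and 0.392).

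The number of calls in Ctrl depended strongly on single libraries, over all features as well as over the members. The median difference over the members was 0.63 with all libraries. It was 0.64 without Ctrl replicate 2 of 7 dpi and 0.61 without Ctrl replicate 1 of 7 dpi. Leaving out Ctrl replicate 1 of 3 dpi gave 0.56, and leaving out Ctrl replicate 2 of 3 dpi gave 0.71.

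In Osr1cKO the same rule gave another picture, and the difference between the genotypes is the interaction given further on. Here 7 members rose and 3 fell, where 27.2% of all 16279 features rose and 29.4% fell. The 7 were Pcdhb9, Pcdhb11, Pcdhb13, Pcdhb17, Pcdhb19, Pcdhga6 and Pcdhgb1. Pcdhb9 went from 0.750 and 0.850 TPM to 2.21 and 2.56 TPM (0.87 ± 0.14, adjusted p = 0.00624) and Pcdhgb1 from 2.64 and 2.29 TPM to 5.40 and 5.77 TPM (0.88 ± 0.16, adjusted p = 0.00975). All 7 also rose in Ctrl. The difference was above 0 for 28 members (49.9% of all features), and the days did not overlap for 21 with 7 dpi higher (40.6%) and 7 with 7 dpi lower (36.5%).

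The genes that fell in Osr1cKO were the C genes of the gamma cluster. Pcdhgc3 fell from 148 and 165 TPM to 116 and 119.8 TPM (-0.47 ± 0.09, adjusted p = 0.0106). Pcdhgc4 fell from 1.95 and 2.61 TPM to 1.11 and 1.19 TPM (-0.64 ± 0.16, adjusted p = 0.0245) and Pcdhgc5 from 7.70 and 5.67 TPM to 4.84 and 4.03 TPM (-0.54 ± 0.21, adjusted p = 0.0871). Pcdhgc5 had a similar difference in Ctrl, which missed the threshold (-0.55 ± 0.21, adjusted p = 0.101). For Pcdhgb8 the difference in Osr1cKO was -0.13 ± 0.24. It is given without p, because its values at 3 dpi entered the choice of the family.

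The number of calls in Osr1cKO also depended on single libraries. Without either library of 7 dpi it fell over all features as well as over the members. Without replicate 2 of 3 dpi it rose over the members only. The median difference over the members was 0.12 with all libraries. It was 0.09 without replicate 1 and 0.08 without replicate 2 of 3 dpi. Leaving out replicate 1 of 7 dpi gave 0.17, and leaving out replicate 2 of 7 dpi gave 0.10. Pcdhb9, Pcdhga6, Pcdhgb1 and Pcdhgc3 were called in each of these fits.

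Markers of most other cells moved with the day as well. The summed TPM at 3 and at 7 dpi was 8.36 to 14.2 and 45.4 to 79.3 for myofibers (6 of 6 markers higher in all 4 libraries of 7 dpi than in any of 3 dpi), 61.4 to 113 and 118 to 151 for muscle stem cells (4 of 6), and 17.2 to 44.4 and 47.2 to 72.0 for endothelium (4 of 6). It was 9.15 to 17.96 and 23.5 to 31.6 for hematopoietic cells (3 of 9), 5.41 to 8.76 and 10.6 to 12.0 for Schwann cells (1 of 9), and 0 to 1.35 and 10.9 to 49.5 for erythroid cells (3 of 4). The neuron sum was 18.1 to 115 and 13.8 to 16.1 TPM, and Sox10, a defining gene of Schwann cells, was at most 0.0341 TPM in any library. The mural sum overlapped between the days, at 241 to 761 and 224 to 737 TPM (3 of 6 markers higher, 1 lower). The muscle stem cell sum was largely Vcam1, at 53.6 to 133 TPM, whereas Pax7, Myf5 and Myod1 were at most 0.110 TPM at 3 dpi. The part of these cells in the protocadherin values was not tested.

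Read across all groups, the lowest levels stood in Ctrl at 3 dpi. Both of its libraries lay below the other 6 for 19 of the 44 members (7.58% of all 17371 features) and above them for none (7.98%). The 19 were 11 beta genes (Pcdhb3, Pcdhb5, Pcdhb6, Pcdhb7, Pcdhb8, Pcdhb11, Pcdhb15, Pcdhb16, Pcdhb18, Pcdhb21 and Pcdhb22) and 8 gamma genes (Pcdhga1, Pcdhga3, Pcdhga7, Pcdhga8, Pcdhga11, Pcdhga12, Pcdhgb5 and Pcdhgb8). Pcdhgb8 was the widest case, with at most 0.681 TPM in these libraries and at least 6.68 TPM in the other 6. The count includes the contrast on which the family was chosen.

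Whether the genotype difference itself changed with the day was fitted as an interaction over all 8 libraries. No member and none of the 17371 features passed an adjusted p under 0.05 in the limma fit (0% of features). By limma-voom no member and none of 17143 features passed. At an unadjusted p under 0.05, 15 members had a lower knockout-to-control difference at 7 dpi than at 3 dpi (3.78% of all features) and none a higher one (3.17%). The estimate was above 0 for 2 of the 44 (45.3% of all features), and without further scaling for 6. The estimate was -2.57 ± 0.34 for Pcdhgb8 and -0.80 ± 0.32 for Pcdhgc3. The median estimate over the members was -0.52 with all libraries and -0.49 without Ctrl replicate 1 of 3 dpi. These estimates contain the 3 dpi contrast and are given as a description.

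The genes for factors that arrange and silence the clusters did not pass in limma between the genotypes. Of 18 architecture and silencing genes, none met the rule at 3 dpi or at 7 dpi, also not at an unadjusted p under 0.05. Ctcf, the factor that binds protocadherin promoters and their enhancer, was at 38.5 and 45.3 TPM in Ctrl and 43.5 and 51.5 TPM in Osr1cKO at 3 dpi, and at 33.7 to 41.2 TPM at 7 dpi. Between days, 2 of the 18 rose and 6 fell in Ctrl, where 22.7% of all features rose and 27.3% fell, and 1 rose and 7 fell in Osr1cKO, where 27.2% rose and 29.4% fell. Ctcf was among those that fell in Osr1cKO (-0.40, adjusted p = 0.049), and in Ctrl its difference was -0.24 (adjusted p = 0.220).

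Dnmt1, the maintenance DNA methyltransferase, fell from 69.7 to 90.3 TPM at 3 dpi to 16.4 to 23.9 TPM at 7 dpi (log2 difference -2.05 in Ctrl, adjusted p = 0.00391, and -1.86 in Osr1cKO, adjusted p = 0.000969). Dnmt3a, a de novo methyltransferase, rose in both (0.57, adjusted p = 0.0481, and 0.49, adjusted p = 0.0291). The cohesin subunits Rad21 (-0.69 and -0.74), Smc1a (-0.56 and -0.67) and Smc3 (-0.50 and -0.45) fell in Ctrl and in Osr1cKO. The subunits Stag1 (0.19 and -0.20) and Stag2 (0.32 and 0.18) met the rule in neither genotype. Nipbl, which loads cohesin, rose in Ctrl (0.51, adjusted p = 0.0254 in limma) and did not pass in Osr1cKO (0.32, adjusted p = 0.103). Smchd1, a silencing factor, and Setdb1, a histone methyltransferase, fell in both as well.

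Of 12 genes for the proteolytic processing and intracellular partners of protocadherin proteins, none met the rule in limma between the genotypes at either day. At an unadjusted p 1 was lower at 7 dpi (5.83% of all features), Psen2, a catalytic subunit of gamma-secretase. In each genotype 1 of the 12 rose and 7 fell from 3 to 7 dpi, beside 22.7% and 27.3% of all features in Ctrl and 27.2% and 29.4% in Osr1cKO. Adam10, a membrane protease that sheds cadherin extracellular domains, fell in Ctrl (-0.67, adjusted p = 0.0144) and in Osr1cKO (-0.61, adjusted p = 0.0119).

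Protocadherins outside the clusters are single genes at other places in the genome. Of the 11 tested at 3 dpi, 1 met the rule as higher in Osr1cKO, Pcdh7 (29.9 and 29.5 TPM against 39.2 and 48.8 TPM), and 1 as lower, Pcdh1 (17.1 and 14.0 TPM against 8.02 and 11.5 TPM). Over all features 2.4% were higher and 3.87% lower by this rule. At 7 dpi none of 10 passed in limma, and at an unadjusted p 2 were lower (5.83% of all features), Pcdh17 and Pcdh18. The difference there was below 0 for all 10 (median -0.18), and for 8 of 10 without further scaling, so that they leaned downward as the clustered genes did. From 3 to 7 dpi, 4 of 11 rose and 2 fell in Ctrl (22.7% and 27.3% of all features), and 1 of 12 rose and 2 fell in Osr1cKO (27.2% and 29.4%).

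Of the classical and related cadherins, Cdh11, the mesenchymal cadherin, rose from 27.9 to 30.3 TPM at 3 dpi to 108 to 126 TPM at 7 dpi in both genotypes (1.96, adjusted p = 0.00362, and 1.94, adjusted p = 0.000969), and in all 5 of 10 cadherins rose and none fell in Ctrl (median 0.61), and 3 of 8 rose and none fell in Osr1cKO (median 0.63), beside the shares of all features just given. In Ctrl this median was close to that of the clustered genes, 0.63. None of the cadherins met the rule between genotypes in limma. At an unadjusted p 1 was higher and 1 lower at 7 dpi (5.3% and 5.83% of all features).

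Genes flanking or lying within the locus moved in both directions. Taf7, an intronless gene for a subunit of the general transcription factor TFIID, lies between the beta and the gamma cluster on the opposite strand (chr18:37640491-37644204). It was at 4.45 and 6.36 TPM in Ctrl and 5.77 and 3.84 TPM in Osr1cKO at 3 dpi, and at 10.6 to 13.3 TPM at 7 dpi, rising in Ctrl (1.19, adjusted p = 0.0153) and in Osr1cKO (1.06, adjusted p = 0.0135). Diaph1, an actin-nucleating formin downstream of the gamma cluster (chr18:37843601-37935476), was at 67.2 to 75.5 TPM at 3 dpi and at 48.3 to 55.6 TPM at 7 dpi and fell in both (-0.44, adjusted p = 0.0352, and -0.46, adjusted p = 0.00988). Of the 18 neighbours tested, 4 rose and 7 fell in Ctrl between the days (22.7% and 27.3% of all features), and 6 rose and 8 fell in Osr1cKO (27.2% and 29.4%). Cd14, a co-receptor for bacterial lipopolysaccharide, was the 1 that met the rule between genotypes at 3 dpi (7.97 and 8.12 TPM against 11.0 and 20.5 TPM), where 2.4% of all features were higher. At 7 dpi no neighbour passed in limma. Hars, Wdr55 and Cd14 were higher at an unadjusted p (5.3% of all features), Cd14 with 12.3 and 9.94 TPM against 26.8 and 25.5 TPM (1.05, adjusted p = 0.171).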

How the data were processed

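The authors sequenced polyA RNA of sorted FAPs as stranded paired-end libraries, used STAR with the mm10 genome, and deposited TPM per gene symbol, which they computed from fragment counts normalized with DESeq2. The counter, its annotation and its use of strand are not given in the sources used here. Each table had 55385 rows, of which 109 that repeat a symbol were left out. Union exon lengths of GENCODE M21 (GRCm38, the assembly of mm10) turned TPM into fragments, of which 98.6% to 98.9% of the values under 50 were whole within 0.02.

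A feature was tested when 2 libraries held 10 or more of these fragments and all libraries fitted held 15 (mean TPM of at least 1 where no length was known). Libraries were scaled by trimmed means (30%), and log2(TPM + 1) was tested with limma 3.58.1 (R 4.3.3, trended prior) within the libraries of each comparison. This scale understates the fold changes of low genes. The p-values were adjusted by Benjamini-Hochberg over all features. A call asked for a change of more than 1.2-fold, with p under 0.05 before adjustment at 3 dpi and an adjusted p under 0.1 otherwise (0.05 for the interaction). The fit was tested on simulated data. Sums over clusters got no test. Groups came from the labels, and the libraries of a group are separate mice or pools.

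The members, gene lists and rules were chosen with earlier results of these data known. Members were named by a mean TPM among the 6 highest of their cluster, or by groups that do not overlap with a mean of at least 1 TPM and a ratio of at least 2; others named were called, or were chosen after their values were seen. Same-numbered replicates did not deviate together (correlations -0.14 to 0.06), so no block was used. The limits given for zeros allow for counting error only. They leave out differences between mice and fragments of shared exons that were not counted.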

Additional observations from a re-analysis of the deposited data

How the results depend on the processing

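Scaling, pseudocount, filter, test, block, joint fit and left-out libraries were varied, and the cause of a change was not tested. The numbers of members called were 9 at 3 dpi, 0 at 7 dpi, 30 in Ctrl and 10 in Osr1cKO between days and 0 for the interaction. Over all features the calls were 985 of 15699, 11 of 16578, 8258 of 16525, 9215 of 16279 and 0 of 17371, in the same order. At 3 dpi the members called became 0 at an adjusted p under 0.1 (0 of 15699 features) and 4 with a mean TPM of at least 1 (817 of 13802). One fit of all 8 libraries gave 15 at 3 dpi (1834 of 17371), and an unadjusted p gave 2 at 7 dpi (1844 of 16578). Without a filter on low values, which tests more features, 11 members were called in Ctrl (6615 of 31371 features) and 6 in Osr1cKO (8160 of 30740) between days. Leaving out a single library changed the number of calls over all features too. The ranges of member counts that follow therefore do not describe the members alone. With one library left out, which leaves a group with 1 library assumed to vary like the others, the counts ranged from 4 to 8 at 3 dpi, were 0 at 7 dpi, and ranged from 0 to 32 in Ctrl, 5 to 18 in Osr1cKO and 0 to 1 for the interaction.

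With the replicate number as a block, 9, 0, 22, 10 and 0 members were called, beside 980, 27, 7115, 8738 and 0 of all features. The block thus moved no count of members by over 1.5 times. The numbers mark no shared animal or day. Crossing them, an alternative chosen after seeing the data, called 9 members at 3 dpi (1168 of 15699 features) and 28 in Ctrl between days (8395 of 16525).

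Log2 ratios of cluster sums moved by more than the spread between replicates as follows. After trimmed-mean scaling the beta sum was at -0.24 and the gamma sum at -0.12 between genotypes at 7 dpi, and in Osr1cKO between days the gamma sum was at -0.27 and the alpha sum at 0.058. As fragments scaled by library size only, the beta sum at 7 dpi was at -0.18 and the gamma sum at -0.044, and the gamma sum in Osr1cKO between days at -0.18. Per unique kilobase, added after seeing the data, the beta sum was at -0.16 at 7 dpi and the gamma sum at -0.15 in Osr1cKO. Without its highest member, the alpha sum was at 0.83 at 3 dpi and -0.16 in Osr1cKO between days, the beta sum at 1.25 in Ctrl between days, and the gamma sum at 0.083 at 7 dpi and 0.023 in Osr1cKO. Leaving out single libraries, the ratios between genotypes at 3 dpi ranged from 0.37 to 0.63 for alpha, 0.40 to 0.79 for beta and 0.30 to 0.78 for gamma. At 7 dpi the range was -0.40 to 0.23 for alpha, -0.15 to -0.059 for beta and -0.032 to 0.058 for gamma. Between days it was 0.39 to 1.01, 1.10 to 1.19 and 0.080 to 0.57 in Ctrl, and 0.066 to 0.18, 0.25 to 0.64 and -0.22 to -0.19 in Osr1cKO, in the same order.

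Depth limits the alpha genes, with 29 to 58 fragments per library over the whole cluster, and lets no single alpha gene but Pcdhac2 be compared. With 2 libraries per group, 1 mouse each at 3 dpi, single animals weigh heavily.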
